A study of Mus musculus with 6 samples.

Results

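Messenger RNAs of 6 receptors that position T cells, and of the transcription factor gene Klf2, were followed in activated mouse CD8 T cells exposed to DAHB or to NaCl. The receptors were Ccr7, Cxcr3, Cxcr4, Cxcr5, S1pr1 and S1pr4. The 7 genes were chosen by symbol from a table of 13883 genes, all 7 had a row in it, and all 7 passed the filter on low counts. One group was incubated overnight with 20 mM DAHB, an agent the labels give no other name for, and the control group with 20 mM NaCl. All cells were CD8 T cells of Wild-type mice, taken from spleen and lymph nodes and activated through CD3 and CD28 with antibodies. Each group had 3 samples of 100000 cells, and RNA was sequenced in bulk. The sources used here give no age, sex or strain of the mice. Whether the 3 samples of a group came from different mice or cultures is not stated, so the p-values reflect sample-to-sample spread that may be only technical.

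Chemokine receptors and sphingosine-1-phosphate (S1P) receptors are G protein-coupled receptors that steer lymphocytes along gradients of their ligands. CCR7 binds CCL19 and CCL21 and brings T cells into the T cell zone of lymph nodes, CXCR5 binds CXCL13 and leads cells to B cell follicles, CXCR3 binds the interferon-induced CXCL9 and CXCL10 and directs effector cells to inflamed tissue, and CXCR4 binds CXCL12 of marrow and stroma. S1PR1 senses S1P of blood and lymph and lets T cells leave lymphoid organs, and in mouse T cells the transcription factor KLF2 drives S1pr1, while T cell receptor signals shut Klf2 off.

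Promoter sequences were matched for 4 of the 7 genes in the RefSeq table for GRCm38.p6. Of these, Klf2, Cxcr4 and S1pr4 fell with DAHB and Cxcr3 rose. No sequence was matched for Ccr7, which fell, or for Cxcr5 and S1pr1, which rose. Motifs were counted after the data were seen, and CACCC is marked because KLF factors bind it. Whether any motif bears on the changes was not tested. Each sequence runs 5′ to 3′ from 250 bases before to 50 bases after the annotated start, and capitals mark CACCC or its reverse complement GGGTG.
Klf2 (chr8:72318812-72319111, plus strand): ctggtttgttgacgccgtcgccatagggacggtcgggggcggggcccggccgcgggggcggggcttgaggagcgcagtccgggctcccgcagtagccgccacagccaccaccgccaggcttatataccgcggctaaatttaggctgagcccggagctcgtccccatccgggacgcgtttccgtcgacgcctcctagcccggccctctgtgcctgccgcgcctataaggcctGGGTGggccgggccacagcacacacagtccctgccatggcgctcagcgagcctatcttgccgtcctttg
Cxcr4 (chr1:128592250-128592549, minus strand): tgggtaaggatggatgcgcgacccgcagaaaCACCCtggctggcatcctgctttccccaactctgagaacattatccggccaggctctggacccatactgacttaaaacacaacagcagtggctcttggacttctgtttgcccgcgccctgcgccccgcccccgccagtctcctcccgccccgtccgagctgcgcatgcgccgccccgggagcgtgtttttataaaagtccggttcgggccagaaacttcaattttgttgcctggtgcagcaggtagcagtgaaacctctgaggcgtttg
S1pr4 (chr10:81500088-81500387, minus strand): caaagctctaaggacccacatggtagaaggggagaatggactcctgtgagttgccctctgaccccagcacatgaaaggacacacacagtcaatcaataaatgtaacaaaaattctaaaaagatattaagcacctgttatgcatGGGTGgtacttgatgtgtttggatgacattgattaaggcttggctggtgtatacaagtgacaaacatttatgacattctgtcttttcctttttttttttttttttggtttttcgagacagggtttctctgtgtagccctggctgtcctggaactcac
Cxcr3 (chrX:101734098-101734397, minus strand): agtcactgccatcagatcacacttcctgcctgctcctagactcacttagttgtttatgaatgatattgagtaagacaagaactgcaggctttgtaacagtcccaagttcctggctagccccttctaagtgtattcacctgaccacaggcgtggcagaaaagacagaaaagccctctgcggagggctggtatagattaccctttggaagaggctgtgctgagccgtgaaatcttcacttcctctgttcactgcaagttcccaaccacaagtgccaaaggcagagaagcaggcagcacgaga

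The promoters of Klf2, Cxcr4 and S1pr4 each held 1 match to CACCC on either strand and that of Cxcr3 held 0, while 63.2% of 10160 promoters of tested genes held at least 1. The 4 promoters differed in base composition: the Klf2 sequence was 69.3% G and C with 32 CpG dinucleotides, Cxcr4 59.3% with 20, Cxcr3 49.3% with 4 and S1pr4 41.0% with 1, against medians of 61.0% and 21.0 CpG over the 10160 promoters. A GC box, GGGGCGGGG on either strand, occurred 2 times in the Klf2 sequence and 1 time in that of Cxcr4, and was held by 22.3% of all promoters. Neither the FOXO element GTAAACA (2.48% of all promoters) nor the AP-1 element TGANTCA (4.81%) was found in any of the 4 windows. No base of a CACCC match lay within a GC box match. The G and C content of the Klf2 window exceeded that of 80.5% of the 10160 promoters. That of the S1pr4 window exceeded 1.59% of them, and both genes fell with DAHB.

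The homing transcripts did not move as a block. Of the 7 genes, Cxcr5, Cxcr3 and S1pr1 rose with DAHB and Ccr7, Cxcr4, S1pr4 and Klf2 fell (limma-trend on log2 values, Benjamini-Hochberg adjusted p under 0.05 over 13804 genes), although S1pr1 lay at the threshold. Over all tested genes 58.5% were called, 29.4% rose and 29.1% fell. A count of called genes, among the 7 or in any list below, therefore says little by itself. Changes of at least 2-fold were found for Cxcr5 and Cxcr3 upward and for Ccr7 and Cxcr4 downward, against 10.6% of all tested genes upward and 1.97% downward. DAHB and NaCl libraries did not overlap in 6 of the 7 genes, all but S1pr1, compared with 63.4% of all genes tested. Values are scaled by 1 size factor per library, so every change is relative to the bulk of genes, whose median log2 fold change was 0.00.

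**Figure D1:**
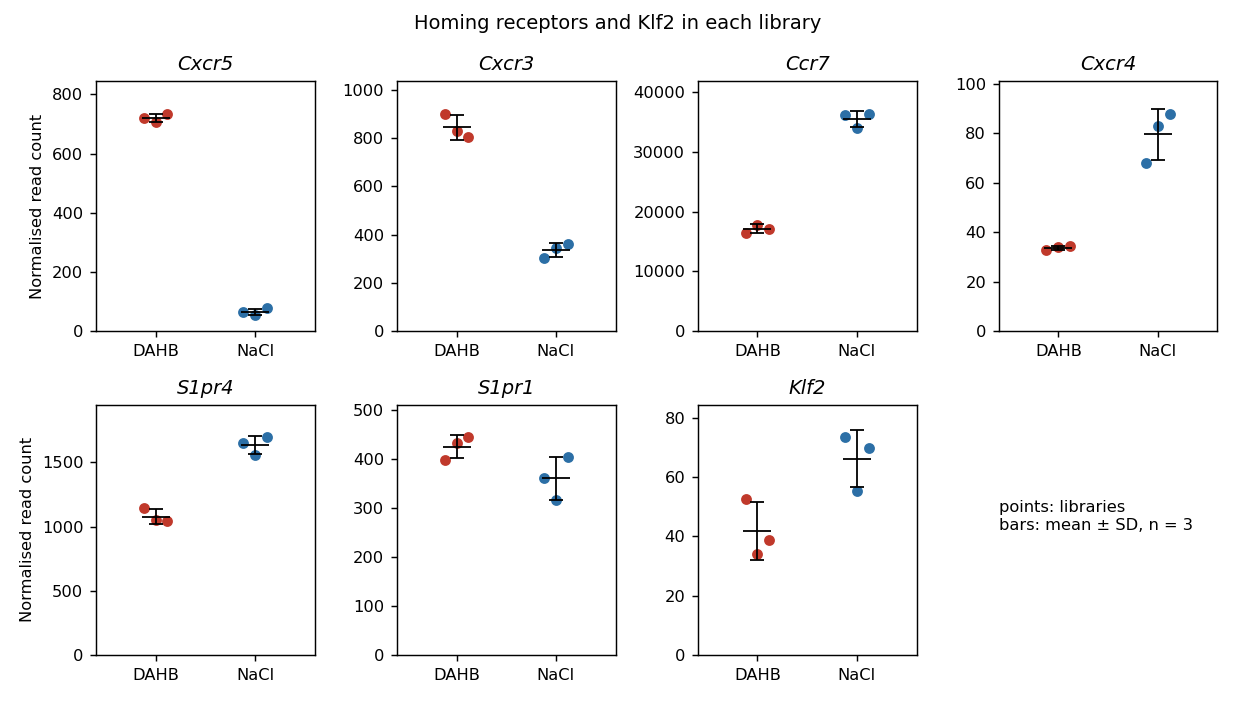
Normalised read count of each gene in the 3 DAHB libraries (red, left) and the 3 NaCl libraries (blue, right), with mean ± SD, on axes that start at 0 and differ between genes. Cxcr5 stood at 707 to 735 with DAHB, against 56.4 to 76.7 with NaCl, and Ccr7 at 16510 to 17870, against 34034 to 36433; only S1pr1 overlapped between the groups.

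Every value (100%) corresponded to a whole number of reads, and depths were 31055613 to 33179197 reads with DAHB and 31436459 to 56007582 with NaCl. The cells carried T cell markers, among them Cd8a and Cd8b1. All 11 listed were measured, of which 4 rose, 3 fell and 4 did not pass. Their summed normalised count was 121769 to 124680 with DAHB and 122807 to 124657 with NaCl. The list includes genes of T cells in general, such as Thy1, Cd5 and Lck, and its genes moved in both directions. Near-equal sums therefore do not measure CD8 identity. Cd8a and Cd8b1, picked out after their values were seen, rose by log2 fold changes of 0.59 and 0.51. Thy1 and Lck did not pass the test (30414 ± 603 and 16203 ± 121 with DAHB, 31338 ± 880 and 15833 ± 409 with NaCl; SD, n = 3 each), while Cd5 fell by 0.55 on the log2 scale. Of 16 B cell markers, which matter here because B cells carry Cxcr5, Ccr7 and Cxcr4, 7 were measured, none at 0 in any library, with sums of 7373 to 7821 with DAHB and 7529 to 7837 with NaCl; 3 rose and 3 fell. The defining genes Cd79a, Ms4a1 and Pax5 were not analysed here. Ighm fell to 1610 ± 80.4 with DAHB, against 4344 ± 30.4 with NaCl, whereas Cd74, the invariant chain, and Ralgps2 rose by log2 fold changes of 0.83 and 0.44. Most of the sums came from Ighm and Cd74 (4645 ± 234 with DAHB and 2606 ± 114 with NaCl), which moved in opposite directions. Near-equal sums therefore do not measure B cell content. Of the rest, picked out after their values were seen, Cd79b was higher, at 586 ± 37.0 with DAHB and 133 ± 15.7 with NaCl, while Ighd (10.96 ± 5.58 with DAHB and 53.0 ± 7.53 with NaCl) and Igkc (10.1 ± 7.46 with DAHB and 26.6 ± 4.51 with NaCl) were lower. Of 7 CD4 T cell markers 6 were measured, with sums of 7064 to 7740 with DAHB and 12462 to 12912 with NaCl. Most of these sums came from Ctla4, at 5092 ± 423 with DAHB and 11415 ± 248 with NaCl (log2 fold change -1.17). The sums therefore follow Ctla4 and do not measure CD4 T cell content. Zbtb7b rose (1.38) and Gata3 rose by 0.26, a call lost in 7 of 16 alternatives. Cd4 itself, also picked out afterwards, stood at 65.5 ± 9.88 with DAHB and 11.6 ± 6.46 with NaCl, against 19112 ± 449 and 12729 ± 357 for Cd8a. Of 7 NK cell and 8 endothelial markers, 2 each were measured and all 4 rose: Eomes, a factor that CD8 T cells also use (log2 fold change 1.75), Klre1 (1.24), Pecam1, which T cells also carry (0.86), and Vwf (1.31). The Vwf call was lost in 5 of 16 alternatives and that of Klre1 in 1, and Vwf overlapped between the groups; after quantile normalisation the log2 fold changes were 0.73 for Vwf and 0.75 for Klre1. The part of any other cell type in the receptor values was not tested.

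Cxcr5, the follicle homing receptor (ENSMUSG00000047880, GRCm38 chromosome 9, 44511787 to 44561877, minus strand), showed the largest change of the 7. Its normalised read count was 720, 707 and 735 in the DAHB libraries, against 65.8, 56.4 and 76.7 in the NaCl libraries. Every DAHB library lay far above every NaCl library, and the spread was small, with means of 720.6 ± 14.0 and 66.3 ± 10.2 (SD, n = 3 each). The log2 fold change was 3.43 (SE 0.12, 95% interval 3.17 to 3.69, limma adjusted p = 4.28e-11), which ranked 99 among the rises of 13804 genes. In a bulk sample, a change in the number of cells that carry a transcript and a change in the amount per cell cannot be told apart. The reads behind these values were 656, 665 and 662 with DAHB, against 60, 51 and 123 with NaCl. The last of these came from the deepest library. Of its exon bases, 110 (3.30%) also lie in exons of Bcl9l on the opposite strand, so without a stated strand setting a few reads of the pair cannot be assigned. Bcl9l had 1246 ± 183 normalised reads with DAHB and 840 ± 80.2 with NaCl (SD, n = 3 each), a log2 fold change of 0.56.

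Cxcr3, the receptor of effector T cells for interferon-induced chemokines (ENSMUSG00000050232, chromosome X, 101731535 to 101734269, minus strand), also rose. It had 900, 828 and 802 normalised reads in the DAHB libraries, against 305, 345 and 362 in the NaCl libraries. The groups lay well apart, and the log2 fold change was 1.32 (SE 0.08, 95% interval 1.14 to 1.50, limma adjusted p = 1.48e-08). The ratio of Cxcr5 to Cxcr3 reads, which does not depend on the size factors, lay between 0.800 and 0.917 with DAHB, against 0.163 to 0.216 with NaCl. On the log2 scale the difference was 2.11. The 3 and 3 libraries did not overlap, which gives an exact two-sided permutation p = 0.1, the smallest that this design allows.

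Ccr7, the lymph node entry receptor (ENSMUSG00000037944, chromosome 11, 99144196 to 99155077, minus strand), was the most abundant of the 7 and was 2.07-fold lower with DAHB. Its normalised read count was 16510, 17870 and 17199 in the DAHB libraries, against 36264, 34034 and 36433 in the NaCl libraries. No DAHB library came near a NaCl library, and the log2 fold change was -1.05 (SE 0.047, 95% interval -1.15 to -0.95, limma adjusted p = 4.72e-10). There were between 22.9 and 25.3 Ccr7 reads per Cxcr5 read with DAHB, against 475 to 604 with NaCl. The log2 ratio of Cxcr5 to Ccr7 was thus higher by 4.48 with DAHB (exact permutation p = 0.1). Cxcr5 was higher and Ccr7 lower in every DAHB library, so the ratio had to separate the groups and this p adds nothing.

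Cxcr4, the receptor for CXCL12 (ENSMUSG00000045382, chromosome 1, 128588199 to 128592293, minus strand), was scarce and fell. It had 32.9, 34.0 and 34.4 normalised reads in the DAHB libraries, against 68.0, 82.9 and 88.0 in the NaCl libraries. The DAHB libraries were nearly equal to each other and each was below the lowest NaCl library. The log2 fold change was -1.20 (SE 0.20, 95% interval -1.63 to -0.78, limma adjusted p = 0.000113), on 30 to 32 reads per DAHB library. There were 20.8 to 21.9 Cxcr5 reads per Cxcr4 read with DAHB, against 0.680 to 0.968 with NaCl, a log2 difference of 4.64 (exact permutation p = 0.1). With Cxcr5 higher and Cxcr4 lower in every DAHB library, this p was fixed as well.

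The S1P receptors differed from each other. S1pr4, a receptor largely restricted to blood and lymphoid cells (ENSMUSG00000044199, chromosome 10, 81497747 to 81500132, minus strand), had 1144, 1048 and 1039 normalised reads in the DAHB libraries, against 1647, 1558 and 1694 in the NaCl libraries. It fell in every DAHB library, with a log2 fold change of -0.60 (SE 0.06, 95% interval -0.73 to -0.47, limma adjusted p = 1.14e-06). S1pr1, the egress receptor (ENSMUSG00000045092, chromosome 3, 115710433 to 115715072, minus strand), had 398, 432 and 444 normalised reads in the DAHB libraries, against 361, 317 and 404 in the NaCl libraries. The highest NaCl library exceeded the lowest DAHB library. Its log2 fold change of 0.24 (SE 0.10, 95% interval 0.03 to 0.45) had a limma adjusted p of 0.04997, just inside the threshold. The call was lost in 10 of 16 alternatives, with an adjusted p of 0.0591 by edgeR and 0.0870 by DESeq2 on whole reads and 0.230 after quantile normalisation. It was also lost without NaCl replicate 1 (adjusted p = 0.0954), NaCl replicate 2 (0.219), DAHB replicate 2 (0.101) or DAHB replicate 3 (0.151). The ratio of S1pr4 to S1pr1 reads was 2.34 to 2.87 with DAHB, against 4.19 to 4.91 with NaCl, a log2 difference of -0.84 without overlap between the groups (exact permutation p = 0.1).

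Klf2, the quiescence and trafficking factor (ENSMUSG00000055148, chromosome 8, 72319033 to 72321656, plus strand), had 52.7, 34.0 and 38.9 normalised reads in the DAHB libraries, against 73.5, 55.3 and 69.9 in the NaCl libraries. The highest DAHB library lay just under the lowest NaCl library, and counts were small, between 32 and 48 reads with DAHB and between 50 and 112 with NaCl. The log2 fold change was -0.66 (SE 0.22, 95% interval -1.14 to -0.19, limma adjusted p = 0.0192). The call was lost without NaCl replicate 1 (adjusted p = 0.0689), NaCl replicate 3 (0.0672), DAHB replicate 2 (0.0721) or DAHB replicate 3 (0.0550), and the value was -1.14 after quantile normalisation. Klf2 fell while S1pr1, a gene it drives in mouse T cells, had a log2 fold change of 0.24.

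**Figure D2:**
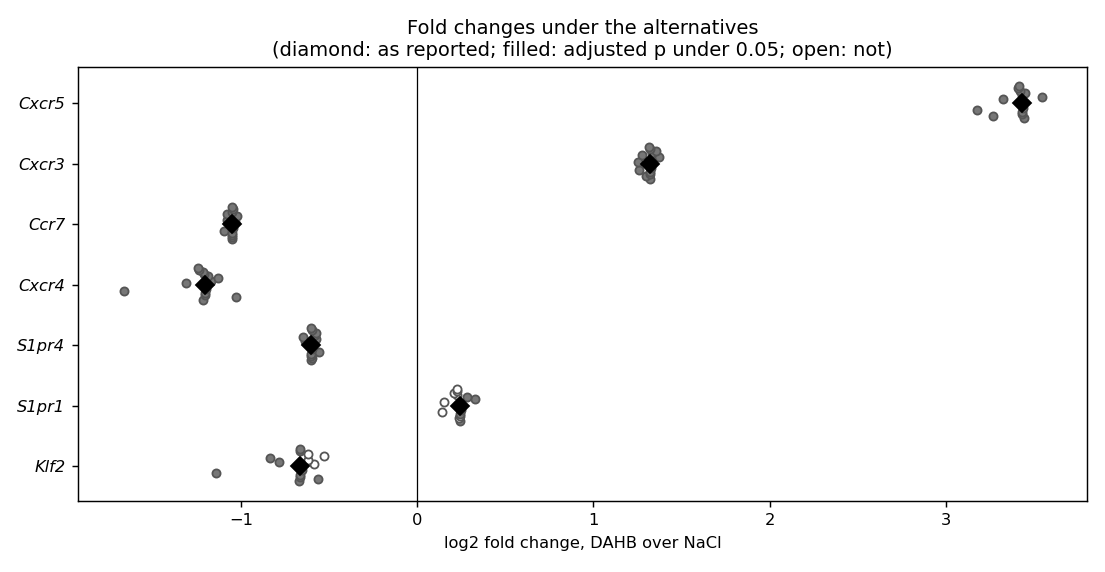
Log2 fold change (DAHB over NaCl) of the 7 genes as reported (diamonds) and under 16 alternatives of normalisation, filter, pseudocount, test and left-out library (circles; filled where the adjusted p was under 0.05, open where not). Open circles appear for S1pr1 (10) and Klf2 (4), and no gene changed direction.

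Dividing by exon length puts the transcripts on 1 scale. In units of normalised reads per kb of merged annotated exon, Ccr7 was at 8692 ± 344 with DAHB and 17986 ± 677 with NaCl (SD, n = 3 each) and led both groups by a wide margin. With DAHB the order below Ccr7 was Cxcr3 (487 ± 29.4), S1pr4 (451 ± 24.3), Cxcr5 (216 ± 4.21), S1pr1 (139 ± 7.74), Klf2 (22.7 ± 5.25) and Cxcr4 (18.7 ± 0.43). With NaCl it was S1pr4 (684 ± 28.9), Cxcr3 (195 ± 16.9), S1pr1 (118 ± 14.3), Cxcr4 (44.0 ± 5.74), Klf2 (35.8 ± 5.22) and Cxcr5 (19.9 ± 3.06). The ranges of Cxcr3 and S1pr4 overlapped with DAHB, those of Klf2 and Cxcr4 overlapped with DAHB, and those of Cxcr4 and Klf2 overlapped with NaCl; the other neighbours were apart. Cxcr5 thus stood in position 4 with DAHB and in position 7, the last, with NaCl.

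**Figure D3:**
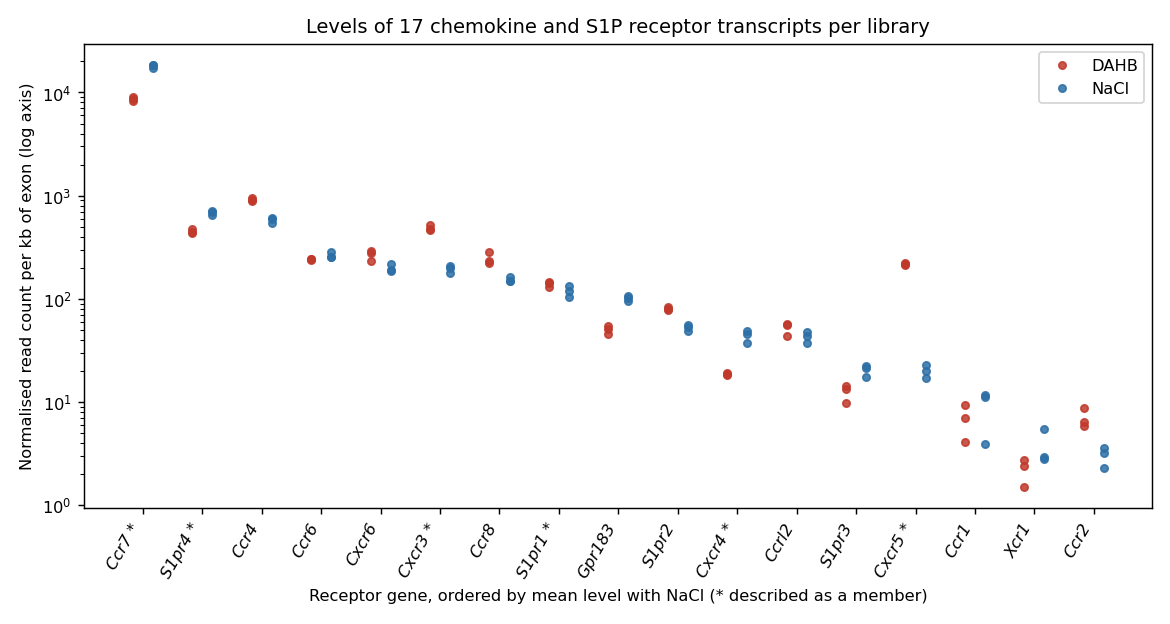
Normalised read count per kb of exon (log axis) of 17 chemokine and S1P receptor transcripts in each DAHB (red, left of each pair) and NaCl (blue, right) library, ordered by the mean with NaCl. The oxysterol receptor gene Gpr183 is plotted among them. Ccr7 exceeded every other receptor plotted in both groups, and Cxcr5 was at 216 ± 4.21 with DAHB, against 19.9 ± 3.06, near the low end, with NaCl.

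The 18 measured chemokine and S1P receptors, as counted here, include the oxysterol receptor gene Gpr183. Summed per kb over these 18, receptor transcript was at 11937 ± 375 with DAHB and 20499.9 ± 770 with NaCl (SD, n = 3 each). Without Ccr7 the other 17 summed to 3245 ± 34.1 with DAHB and 2514 ± 110.1 with NaCl. The sum over all receptors was therefore lower with DAHB and the sum over all but Ccr7 was higher. Ccr7 made up 72.8% ± 0.60 of the sum with DAHB and 87.7% ± 0.26 with NaCl, Cxcr3 4.09% ± 0.36 and 0.951% ± 0.092, and Cxcr5 1.81% ± 0.078 and 0.0968% ± 0.012 (SD, n = 3 each). S1pr1 made up 1.17% ± 0.046 with DAHB and 0.577% ± 0.050 with NaCl, although its own level barely differed. Exact two-sided permutation tests gave p = 0.1 for each of these 4 shares, 0.12 after Benjamini-Hochberg adjustment over 18 receptors. Shares of 1 sum depend on each other, so a lower Ccr7 share raises the rest. The S1pr4 share was 3.79% ± 0.32 with DAHB and 3.34% ± 0.031 with NaCl, with the same exact permutation p, although the level of S1pr4 fell.

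The list of other chemokine receptors also held Gpr183, an oxysterol receptor gene. Of the 21 genes listed 10 were measured. Of these 5 rose, 1 (Gpr183) fell and 4 did not pass. The counts of this list and of those below stand beside 29.4% of all tested genes that rose and 29.1% that fell. The median log2 fold change was 0.36, against 0.00 over all genes. Ccr8 and Ccr4, both receptors found on skin-homing T cells, rose by 0.67 and 0.66 on the log2 scale, and Ccr8 was at 0.41 after quantile normalisation. Gpr183, the oxysterol receptor that positions lymphocytes at the follicle border, fell to 147 ± 13.0 with DAHB, against 292 ± 14.4 with NaCl (SD, n = 3 each), a log2 fold change of -0.99. After quantile normalisation 4 rose and 3 fell. Of markers of myeloid and dendritic cells, which also carry chemokine receptors, 9 of 14 were measured, none at 0 in any library, and their summed count was 1623 to 1976 with DAHB, against 1133 to 1707 with NaCl; 4 rose, 1 fell and 4 did not pass. Lyz2 rose and was at 699 ± 151 with DAHB and 449 ± 144 with NaCl and Cd68 at 448 ± 19.9 and 216 ± 36.4, while Zbtb46 fell by 0.54 on the log2 scale. Lyz2 overlapped between the groups, its call was lost in 3 of 16 alternatives, and its log2 fold change of 0.67 was 0.40 without NaCl replicate 1. Their part in the receptor values was not tested.

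Of 13 other genes of the S1P axis, 10 were measured; 4 rose, 4 fell and 2 did not pass, with a median log2 fold change of 0.06. S1pr2, a receptor that restrains migration, rose to 637 ± 20.8 with DAHB, against 420.0 ± 26.1 with NaCl (SD, n = 3 each), a log2 fold change of 0.60. The S1P-producing kinase gene Sphk1 rose to 152 ± 15.0 with DAHB, against 71.2 ± 14.9 with NaCl (log2 fold change 1.10). Sgpp1, which encodes an S1P phosphatase, fell to 1909 ± 151 with DAHB, against 3007 ± 111 with NaCl (log2 fold change -0.66), and the lipid phosphatase gene Plpp1 rose by 0.60. After quantile normalisation the log2 fold changes of Sphk1 and Plpp1 were 0.69 and 0.36. Of the exon bases of Plpp1, 25.8% are shared with Mtrex on the opposite strand, and of those of Sphk1 4.02% with an antisense gene, so these values are uncertain without a stated strand setting. S1P receptors thus changed in both directions, with S1pr2 higher and S1pr4 lower.

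All 30 listed genes of receptor signalling and desensitisation were measured; 12 rose, 9 fell and 9 did not pass, with a median of 0.00. Rasgrp2, which encodes an activator of the integrin switch RAP1, rose to 291 ± 3.59 with DAHB, against 92.5 ± 8.97 with NaCl (SD, n = 3 each), a log2 fold change of 1.65. Stk4, the kinase MST1 that T cells need for migration, fell to 8679 ± 114 with DAHB, against 17912 ± 61.9 with NaCl (-1.05). The G protein gene Gnaq fell by 0.87 and Rgs1, which dampens chemokine receptor signals, by 0.86 on the log2 scale.

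The adhesion molecules that act beside these receptors moved in both directions, as did all tested genes (29.4% rose and 29.1% fell). Of 23 homing adhesion genes 20 were measured; 11 rose, 5 fell and 4 did not pass, with a median log2 fold change of 0.22. Itgae, the CD103 chain that binds epithelial E-cadherin, was at 158 ± 13.1 with DAHB and 30.8 ± 8.93 with NaCl (SD, n = 3 each; log2 fold change 2.36). The sulfotransferase gene Chst2 rose by 1.09 and Icam2 fell by 0.69 on the log2 scale.

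Of 21 genes around KLF2 and FOXO1, 20 were measured; 5 rose, 6 fell and 9 did not pass, with a median of 0.00. Klf4, a relative of Klf2 that holds T cells in quiescence, fell to 142 ± 11.3 with DAHB, against 567 ± 14.5 with NaCl (SD, n = 3 each), a log2 fold change of -2.00. Foxo1, which drives Klf2, Ccr7 and Il7r in mouse T cells, rose by 0.48. Il7r, the interleukin 7 receptor, rose to 1205 ± 34.1 with DAHB, against 564 ± 20.7 with NaCl (1.09), and Tcf7, a factor of naive and memory cells, rose by 0.58. Genes known as FOXO1 targets in mouse T cells therefore moved in both directions, with Il7r higher and Ccr7 and Klf2 lower. Of the exon bases of Foxo1, 7.78% are shared with an antisense gene.

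Cxcr5 is best known from follicular T cells, so genes of that programme were counted. Of 16 listed genes 14 were measured; 8 rose, 3 fell and 3 did not pass, with a median log2 fold change of 0.35. Tox2, which promotes follicular helper cells in mouse, was at 106 ± 14.1 with DAHB and 29.4 ± 5.96 with NaCl (SD, n = 3 each; log2 fold change 1.82). The transcriptional coactivator gene Pou2af1 rose to 1115 ± 85.5 with DAHB, against 476 ± 24.8 with NaCl (1.22). Id2, which opposes the follicular fate in mouse, rose to 3790.4 ± 238 with DAHB, against 1229 ± 34.2 with NaCl (1.62), and Tox fell by 0.55 on the log2 scale. Bcl6, the defining factor of follicular helper cells and named after its value was seen, rose to 316 ± 26.7 with DAHB, against 235 ± 29.6 with NaCl (0.43). Others of the list, also named afterwards, moved in different ways. Prdm1 was at 49.2 ± 15.2 with DAHB and 8.21 ± 0.59 with NaCl (log2 fold change 2.40). Icos fell by 0.14 on the log2 scale, and Pdcd1 and Sh2d1a did not pass. Genes that promote and that oppose the follicular fate were thus both among those that rose. The counts and the median of this list therefore do not measure a follicular programme.

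**Figure D4:**
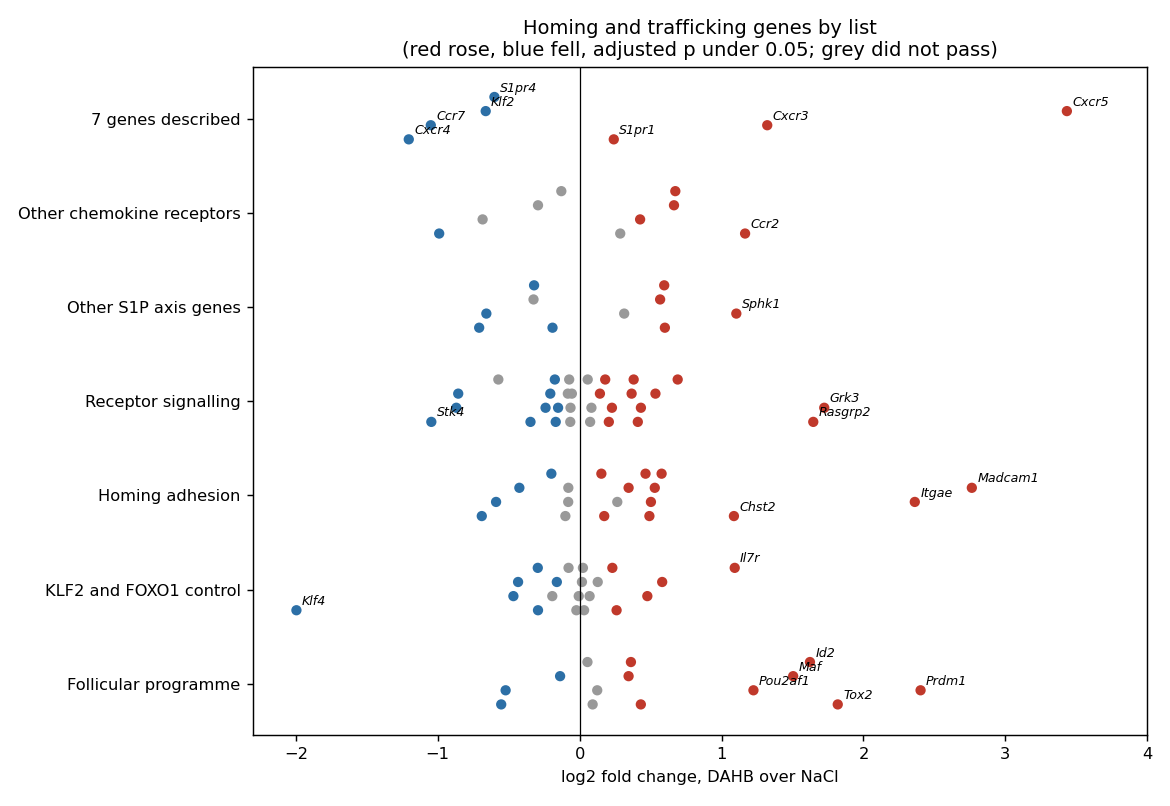
Log2 fold change (DAHB over NaCl) of the 7 genes and of tested genes in 6 lists, 1 point per gene, red where it rose, blue where it fell and grey where it did not pass; names are printed for the 7 genes and for genes with at least 2-fold change. Each list holds genes on both sides of 0, and Cxcr5 at 3.43 lies farthest to the right.

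The tested genes whose profiles over the 6 libraries lay closest to each member were found by Euclidean distance between log2 values set to 0 at the NaCl mean. For Cxcr5 they were Mpzl2, an adhesion protein gene (distance 0.33; 807 ± 27.1 with DAHB and 77.7 ± 5.03 with NaCl), and Gsn, which encodes the actin-severing protein gelsolin (0.36; 3057 ± 149 with DAHB and 314 ± 15.8 with NaCl). Mpzl2 lies on chromosome 9 as well, 478 kb from Cxcr5. For Ccr7 they were the T cell receptor adaptor gene Sla (0.10) and Bend4 (0.11), for Cxcr3 Upb1 and Phf11b (0.15 each), for Cxcr4 Cpd (0.19) and Abcb1b (0.20), and for S1pr4 the cytokine receptor gene Crlf2 (0.05) and Tusc2 (0.08). For S1pr1 they were Tmem192 (0.07) and Ube2l6 (0.09), and for Klf2 Rpusd3 (0.17) and Pimreg (0.27). With 2 groups of 3 libraries, a small distance mainly says that the fold change is alike. The search left out predicted genes and genes averaging under 100 normalised reads in both groups, and within it none came closer to Cxcr5 than 0.33, whereas S1pr4, with its moderate change, had a neighbour at 0.05.

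The nearest tested protein-coding gene on each side of the 7 genes was also examined, a choice made after seeing the data. Of these 14 neighbours 5 rose, 6 fell and 3 did not pass, against 29.4% of all tested genes that rose and 29.1% that fell. Of the 11 that passed, 6 moved in the direction of their member and 5 against it. Beside Cxcr5, Ddx6 was 43.0 kb away and fell by 0.21 on the log2 scale while Bcl9l rose by 0.56. Gna15, a G protein gene 2.17 kb from S1pr4, rose to 677 ± 56.4 with DAHB, against 119 ± 27.6 with NaCl (SD, n = 3 each; log2 fold change 2.52), opposite to S1pr4, while Ncln, 1.36 kb away on the other side, fell by 0.19 like S1pr4. Tns4, a focal adhesion gene 54.9 kb from Ccr7, rose to 327 ± 30.5 with DAHB, against 6.18 ± 3.47 with NaCl, opposite to Ccr7, while Smarce1 on the other side fell by 0.17. Nhsl2, 115 kb from Cxcr3, rose by 1.40, as Cxcr3 did, but was scarce (31.7 ± 4.57 with DAHB and 11.3 ± 0.49 with NaCl). Ogt, 47.2 kb from Cxcr3 on the other side, fell by 0.28, opposite to Cxcr3. Gm10282, 13.8 kb from Klf2, fell by 0.71, as Klf2 did, while Eps15l1 on the other side did not pass (-0.10).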

How the data were processed

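Bulk RNA was sequenced in 6 libraries, 3 with DAHB and 3 with NaCl. The tools named in the submitters' processing notes are DESeq2, featureCounts 1.5.2, STAR 2.5.2b and Trimmomatic 0.36, with the GRCm38 build; the annotation release is not given in the sources used here, nor is the strand setting. The authors deposited a normalised signal per gene, that is, counts over 1 size factor per library. Dividing each column by its smallest step gave whole reads for 100% of values (tolerance 0.001). Every gene in the table had at least 61 reads in all, so a missing row is no measurement.

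Genes with at least 10 normalised reads in at least 3 libraries (13804) were tested as log2(normalised count + 1) with limma-trend (limma 3.58.1, R 4.3.3), two-sided, Benjamini-Hochberg adjusted over all of them, with a threshold of 0.05; fold changes on this scale understate those of scarce genes. Exact permutation tests over samples were run for 18 receptor shares and 4 ratios between members (adjusted p = 0.1 for each ratio). Lists are described by counts only; some of the genes counted, and summed with the receptors, are not reported here. Lengths and coordinates are from GENCODE M21. As alternatives the pseudocount was set to 0.5 or 10, the filter was dropped or raised to 50, libraries were scaled by quantiles or to equal totals, a robust prior or a block on the replicate number was used, single libraries were omitted, and edgeR 4.0.16 and DESeq2 1.42.0 were run on whole reads. Replicate libraries were distinct, with a chi-square of 4.61 to 17.2 per degree of freedom.

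The 7 genes, the lists and the tests were chosen with earlier results of these data known. Named besides the 7 are, of each pathway list, up to 4 called genes with the largest absolute log2 fold change and at least 100 normalised reads on average in the higher group, of each marker list the 3 most abundant, and per member the 2 genes with the closest profile; others are said to be named after their values were seen.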

Additional observations from a re-analysis of the deposited data

How the results depend on the processing

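Cxcr5, Cxcr3, Ccr7, Cxcr4 and S1pr4 kept their direction and their call under all 16 alternatives, with log2 fold changes of 3.18 to 3.54, 1.25 to 1.37, -1.09 to -1.02, -1.66 to -1.03 and -0.64 to -0.56. S1pr1 kept its direction but was no longer called with a pseudocount of 10 (0.23), without a filter (0.24), after quantile normalisation (0.14), by edgeR (0.23) or by DESeq2 (0.23), and its values with 1 library left out ran from 0.15 to 0.33. Klf2 kept its direction with 1 library left out, between -0.84 and -0.53, and lost its call in 4 of these. With the replicate number as a block S1pr1 was at 0.24 with a limma adjusted p of 0.0535, and no other call among the 7 changed. Libraries with the same number did not deviate together (correlations of -0.05, -0.15 and 0.04). Samples of 1 mouse or culture need not deviate together, so these correlations cannot decide whether the numbers pair the samples. Without division by exon length the difference in share, DAHB minus NaCl, was -18.1 percentage points for Ccr7 (-14.9 per kb) and 2.62 for Cxcr5 (1.72 per kb). The log2 ratio of Cxcr5 to Cxcr4 differed by 4.29 with a pseudocount of 10. After quantile normalisation 3 genes of the list of other chemokine receptors fell in place of 1. The genes that rose numbered 4052 and those that fell 4019, between 3430 and 4134 and between 3585 and 4423 over the alternatives. For the other 52 genes named by rule, 810 of 830 values kept their side of the threshold, 18 lost the call, 2 gained it and no called value reversed. Ube2l6, which did not pass, was at -0.02 after quantile normalisation (0.26 as reported). Genes named after their values were seen, and the chromosomal neighbours, were not followed under the alternatives. Quantile normalisation also moved Rpusd3 to -1.06 (-0.64 as reported) and Gata3 to 0.10 (0.26). The cause of these changes was not tested. In the DAHB libraries Klf2 and Cxcr4 had the fewest reads of the 7, 30 to 48 each.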
